A study of Rattus norvegicus with 25 samples.

Results

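Of 3090 genes with the biotype lincRNA in the expression table of rat gingiva, 157 had a mean normalized count of at least 100 over the 25 libraries and are described here. Transcripts with the same gene name were summed, and a normalized count is a gene's read count divided by the library's size factor. The level over all libraries chose the genes, so their levels are given as a description. The whole table held 30214 genes after this sum, and 1612 of the lincRNA genes were above 0 in at least 1 library. The tissue came from wild type Sprague-Dawley rats whose age was 6 weeks per the labels and 8 weeks per the methods, where they were male. Groups of 5 rats were a sham group, experimental periodontitis (EP), and EP treated with a curcumin gel (Cur gel), a zinc oxide nanoparticle gel (ZNP gel) or a gel with both (Cur/ZNP gel). EP was induced by a silk ligature around the first upper molars and by Porphyromonas gingivalis, a bacterium of periodontitis, placed on the silk. Gels of methylcellulose were put into the periodontal pocket at 200 µL once a week for 4 weeks, with 2 mg/mL of a single agent or 1 mg/mL of each agent in the combined gel. The sham group received the blank hydrogel, and whether the EP group received it was not stated.

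Long intergenic noncoding RNAs (lincRNAs) are long transcripts that lie between protein-coding genes and are not translated into known proteins. Some act in the nucleus on chromatin or on the splicing of other transcripts, some act in the cytoplasm, and some are host transcripts whose introns carry small nucleolar RNAs that guide the modification of ribosomal RNA. Most are expressed at lower levels and in fewer cell types than messenger RNAs, so in a mixed tissue such as gingiva their levels can follow single cell types.

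Each library held between 50690789 and 81791804 reads on the genes of the table. The lincRNA genes took 0.221% ± 0.080 of the reads in the sham group (SD, n = 5), 0.166% ± 0.044 in EP, 0.196% ± 0.063 with Cur gel, 0.199% ± 0.050 with ZNP gel and 0.2004% ± 0.033 with Cur/ZNP gel. The ranges of the 5 groups overlapped. The 157 genes held 88.7% of all lincRNA reads. In 3 libraries (sham 4, EP 3 and EP 4) the genes of a nasal gland list took 21.8%, 16.6% and 20.5% of the reads, against at most 0.103% in the other 22, and values without these libraries are given beside several results. Gingiva is a mixed tissue, so fewer cells of a type and less RNA per cell cannot be told apart. Marker genes of keratinocytes, the epithelial cells of gingiva, were present in every library, but sham 4 had the lowest sum of 12 differentiated keratinocyte markers, with a normalized count of 90932 against a sham median of 851336.

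LOC102549726 was a lincRNA that fell in EP and for which RefSeq gives a start site. RefSeq lists it as a long noncoding RNA in the rat assembly GRCr8, and its span in the table's build, Rnor_6.0 (chr20:4871264-4873982, minus strand), holds 2 small nucleolar RNA rows on its own strand. The entry is on the minus strand in Rnor_6.0 and on the plus strand in GRCr8, and it was matched by name alone. The 300 bases around its RefSeq start site are shown because they hold 2 promoter motifs close to the start. They run from 250 bases before to 50 bases after the start, at chr20:3880958-3881257 of GRCr8 on the plus strand, and the capitals mark the TATA box TATAAA and the GC box GGGCGG.
LOC102549726: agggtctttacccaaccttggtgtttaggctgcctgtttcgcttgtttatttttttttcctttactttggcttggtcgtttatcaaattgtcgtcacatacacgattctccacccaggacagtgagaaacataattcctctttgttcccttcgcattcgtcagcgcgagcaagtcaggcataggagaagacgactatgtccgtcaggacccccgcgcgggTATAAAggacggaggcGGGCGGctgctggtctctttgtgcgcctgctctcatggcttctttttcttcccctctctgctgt
The TATA box began at base 221 and the GC box at base 237. On either strand, TATAAA was found in 14.2% and GGGCGG in 33.1% of 33469 RefSeq promoters of the same length, and the stretch had 17 CpG pairs, more than 71.0% of these promoters. No CCAAT box (CCAAT) was found in it, against 37.5% of all promoters. The RefSeq promoter of RGD1565989, one of the genes that rose in EP, is shown because it held none of the 3 motifs and 1 CpG pair, at chr2:125936049-125936348 of GRCr8 on the plus strand.
RGD1565989: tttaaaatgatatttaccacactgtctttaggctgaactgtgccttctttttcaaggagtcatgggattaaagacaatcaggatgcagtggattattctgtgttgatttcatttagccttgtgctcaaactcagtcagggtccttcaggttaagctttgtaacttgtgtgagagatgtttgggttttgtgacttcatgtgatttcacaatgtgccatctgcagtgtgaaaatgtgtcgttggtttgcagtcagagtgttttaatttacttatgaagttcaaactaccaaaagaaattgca
RefSeq named 9 of the 157 genes. It listed 5 of them as noncoding and 4 as protein-coding, the latter being Rfwd3, LOC688442 (Marf1l1), RGD1565989 (Larp1bl) and LOC103694491 (Smim10l2a).

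The level was held by a few genes. LOC102551453, annotated as like the basal keratin Krt5 and overlapping Krt5 on the same strand, had a mean of 23988 and took 23.7% of the reads of the 157 genes. Its 5 sham libraries had normalized counts of 25556, 58429, 46275, 3801 and 60265, and its 5 EP libraries 29132, 12961, 14105, 12808 and 21602. The groups overlapped, and the change was not past the test (log2 fold change -0.69 ± 0.58 (SE), adjusted p = 0.364). Krt5, which forms the filaments of basal keratinocytes, fell (-1.68 on the log2 scale, adjusted p = 0.023), and reads of the overlapping rows cannot be told apart where the counting setting is not stated. Without sham 4, which had the lowest value of LOC102551453, its change was -1.40 on the log2 scale with an adjusted p of 0.0133.

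Next by level was AC134224.1 (mean 6341), which lies beside AC134224.3 (2706), on the minus strand of chromosome 1. AC134224.1 ran from 4917 to 6253 in sham and 4647 to 7813 in EP (log2 fold change 0.19 ± 0.25 (SE), adjusted p = 0.565), and its highest value, 11279.5, was in the Cur/ZNP gel group. LOC100912578, annotated as like the mitochondrial chaperone Hspa9, had a mean of 3427 and did not pass the test in EP (log2 fold change -0.23 ± 0.24 (SE), adjusted p = 0.468). AC134224.3, AABR07001416.3 (2937), AABR07044375.2 (2536), AABR07021544.1 (2183) and AABR07072236.1 (1601) did not pass it either. AABR07041096.1 (1833) was the exception among the 10 highest and fell. These are read counts, and without exon lengths in the table they do not rank the genes per length.

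Tug1, a conserved long noncoding RNA that takes part in gene silencing in the nucleus, was the third by level, and with Rfwd3 it was 1 of 2 genes of the set with an ordinary gene name. It lies on the minus strand at chr14:83878295-83887584 (Rnor_6.0), 1505 bases upstream of the coding gene Morc2 on the opposite strand. Tug1 was 3866, 3891, 4569.6, 4458 and 3852 in the 5 sham libraries and 2886, 3060.4, 3754, 3415 and 3702 in EP. Every EP value lay below every sham value, but the change was small and not past the threshold (log2 fold change -0.30 ± 0.12 (SE), adjusted p = 0.0512). In 5 of 21 other settings it was, with adjusted p from 0.0261 to 0.131 over all of them. With the gels Tug1 was 3486 ± 533, 3188 ± 485 and 3102 ± 335 (SD, n = 5) in the groups with Cur gel, with ZNP gel and with both agents, with log2 fold changes against sham of -0.25, -0.38 and -0.41 and adjusted p of 0.0955, 0.0182 and 0.00888. It therefore fell against sham with ZNP gel and with Cur/ZNP gel. Morc2 had a change of -0.04 in EP (adjusted p = 0.791). Of a list of 78 known long noncoding RNA genes, 5 had rows in the table. Apart from Tug1 they were Snhg11, Terc, Rpph1 and Rn7sl1, under other biotypes, with means of 49.6, 11.015, 58.1 and 286.

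In EP against sham, 72 of the 157 lincRNA genes (45.9%) passed an adjusted p of 0.05, against 37.6% of all 16062 genes tested. Of these, 47 were higher in EP (29.9% of the set, against 18.8% of all genes) and 25 were lower (15.9%, against 18.8%). The level rule bears on this split, since 20 of the 25 libraries are from rats with EP. Of 26 genes with a sham mean under 100, 17 were called higher and 0 lower. By the level rule itself, such a gene has a higher mean outside sham, so these counts are given as a description. Of the other 131, 30 were called higher and 25 lower. How all genes split by their sham mean is not given here, so none of these counts is read against them. Among protein-coding genes with a mean of at least 100, 39.0% passed and 19.6% were higher. The median log2 fold change of the 157 genes was 0.39, and that of all genes was 0.01. In 34 of the 157 genes (21.7%) no EP value overlapped a sham value, against 16.5% of all genes. The split depended on the scaling: quantile normalization gave 41 rises and 35 falls. The split of all genes under that scaling is not given here, so these counts are not read against it. Fits of the EP and sham libraries alone called 37 genes (25 higher and 12 lower), against 21.0% of all genes. When sham 4, EP 3 and EP 4 were left out, 47 genes were called (31 up and 16 down), against 27.9% of all genes.

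**Figure D1:**
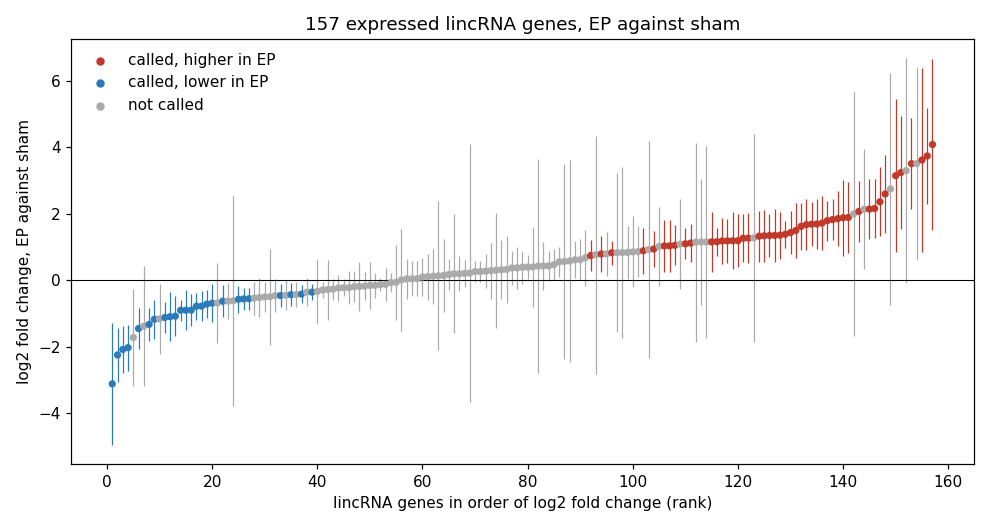
Log2 fold change of each of the 157 lincRNA genes in EP against sham (y axis), in order of size (x axis), with 95% confidence intervals as vertical lines and colours for genes called higher (47), called lower (25) or not called. The intervals of the genes with the largest changes are wide, and most called genes changed upward.

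Of the 8 largest rises without overlap between the groups, most were in rows with no description. Their sham means were under 100, except in AABR07027272.1, AABR07008030.1 and AABR07044962.1. AABR07032724.3 (chr18:78277468-78281567, plus strand) had normalized counts of 29.5, 26.7, 0, 0 and 20.6 in sham and 225, 210.2, 67.6, 79.1 and 94.0 in EP (log2 fold change 4.08 ± 1.23 (SE), adjusted p = 0.0131). Its call was lost without sham 4, EP 3 and EP 4 (adjusted p = 0.0585), and it varied from 0 to 282 with Cur gel. AABR07001068.1 (chr1:37059412-37162589, plus strand) was 12.7, 24.9, 9.18, 0 and 17.7 in sham and 174, 210.2, 66.2, 98.1 and 112 in EP (log2 fold change 3.73 ± 0.70 (SE), adjusted p = 0.000548). All EP values of these 2 genes were higher than any sham value. Both had a sham mean under 100, so by the level rule their rises are given as a description. Their levels also followed a skeletal muscle marker list, with r = 0.76 and 0.66 on deviations from the group means, while AABR07001068.1 had its highest r, 0.74, with the differentiated keratinocyte list. The summed normalized count of 11 muscle markers was at most 405034 in sham and at least 417183 in EP. The part of muscle or keratinocyte RNA in these rises was not tested.

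AABR07027272.1, which lies 15509 bases downstream of Hivep1, a zinc finger transcription factor gene, rose from 40.1, 264, 36.7, 10.2 and 263 in sham to 422, 436, 406, 384 and 329.96 in EP (log2 fold change 2.59 ± 0.56 (SE), adjusted p = 0.00139). Its sham values were highest in sham 2 and sham 5, and all were under the lowest EP value. Hivep1 rose too (0.73 ± 0.12, adjusted p = 0.000281). AABR07008030.1 (chr2:39619209-39630099, plus strand) rose from 56.9, 345, 34.1, 81.3 and 299.7 to 433, 457, 506, 552 and 541 (log2 fold change 2.15 ± 0.43 (SE), adjusted p = 0.00084). AABR07035796.1 rose from 51.7, 59.6, 47.2, 14.2 and 92.4 to 232, 146, 171, 206 and 122 (log2 fold change 1.88 ± 0.51 (SE), adjusted p = 0.0065), and without sham 4, EP 3 and EP 4 it was no longer past the threshold (adjusted p = 0.0747). The sham mean of AABR07035796.1 was under 100, so its rise is given as a description. Sham 2 and sham 5 were the highest of the sham libraries in AABR07008030.1, AABR07027272.1 and AABR07044962.1. These 2 libraries also had the highest sham sums of 9 salivary gland markers, 2388520 and 1759860 against 2691 to 157004 in the other 3, and of differentiated keratinocyte markers. On deviations from the group means AABR07008030.1 and AABR07044962.1 had their highest r with the salivary gland list (0.61 and 0.53) and AABR07027272.1 with the differentiated keratinocyte list (0.65). The part of these tissues in the values was not tested.

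The other rises were in copies of coding genes. AABR07044962.1, annotated as RAN binding protein 2 (a nuclear pore protein), went from 67.5, 462, 113, 50.8 and 372 to 597, 764, 822, 555 and 543 (log2 fold change 2.13 ± 0.44 (SE), adjusted p = 0.00101). AABR07065387.1, annotated as like galactocerebrosidase, a lysosomal enzyme, went from 11.6, 35.6, 17.0, 28.5 and 60.9 to 87.4, 186, 180.4, 148 and 118 (log2 fold change 2.35 ± 0.50 (SE), adjusted p = 0.00119). RGD1565989, which overlaps Larp1b on the same strand, went from 22.1, 127, 52.4, 14.2 and 131 to 161, 307, 183, 244 and 179 (log2 fold change 2.07 ± 0.44 (SE), adjusted p = 0.00137). In each of these 3 genes the groups did not overlap. AABR07065387.1 and RGD1565989 had sham means under 100, so their rises are given as a description. Of 32 genes with a description other than an uncharacterized locus, 27 could be tied to 1 named coding gene. Of the 25 whose coding gene was tested, 13 passed the test, 11 of them higher in EP, against 37.6% and 18.8% of all genes. The 11 include AABR07065387.1 and RGD1565989, so the level rule bears on these counts. They are given as a description and are not read against all genes. The coding gene itself passed in the same direction in 4 of the 13, in the opposite direction in 2, and did not pass in 7, where 37.6% of all genes pass in either direction. Galc rose with AABR07065387.1 (1.91, adjusted p = 0.00951), while Ranbp2 had a change of 0.22 (adjusted p = 0.102). Bach1 rose by 1.01 while its copy AABR07033564.2 fell by 0.57 on the log2 scale. Reads of near-identical copies may have been shared between these rows, so their levels are uncertain.

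Of the falls without overlap between the groups, AABR07021996.1 (chr13:101936929-101974632, plus strand) was the largest. It was 1821, 383, 924, 1772 and 623 in sham and 215, 154, 238, 218 and 296 in EP (log2 fold change -2.09 ± 0.34 (SE), adjusted p = 0.000214), so every EP value was below the lowest sham value. AABR07044366.1, 980 bases downstream of the DNA damage gene Mdc1, fell from 544, 244, 551, 655 and 207 to 139, 60.2, 84.6, 83.4 and 143 (log2 fold change -2.03 ± 0.33 (SE), adjusted p = 0.000226). Mdc1 itself did not pass the test (0.48, adjusted p = 0.166). AABR07069227.1 fell from 613, 364, 547, 998 and 359 to 196, 171, 207, 201 and 307 (log2 fold change -1.33 ± 0.24 (SE), adjusted p = 0.000379). AABR07041096.1 on the X chromosome, the ninth by level, was 4219, 3019.9, 3746, 2714 and 2183 in sham and 1279, 1568, 1101, 1461 and 2050.3 in EP (log2 fold change -1.08 ± 0.29 (SE), adjusted p = 0.00598). AC120486.8, upstream of Trim39 on the opposite strand, fell from 419 ± 91.1 to 239.6 ± 28.9 (SD, n = 5) with log2 fold change -0.78 ± 0.19 (SE), adjusted p = 0.00334. Trim39 fell as well (-0.69, adjusted p = 0.00367).

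AABR07058158.1 is the most split of the falling genes, with 18 transcripts over chr7:102648881-102870006, on the plus strand 57641 bases downstream of Myc, the growth-promoting transcription factor gene. RefSeq's assembly places the long noncoding RNA gene Pvt1 next to Myc, but the row was not matched to it by an identifier. The 5 sham libraries had 911, 599, 736, 512 and 722 and the 5 EP libraries 361, 208, 197, 351 and 478 (log2 fold change -1.18 ± 0.28 (SE), adjusted p = 0.0031). No EP value reached the lowest sham value. Myc fell in EP from 4220.4 ± 1317 to 2364 ± 566 (SD, n = 5), a log2 fold change of -0.80 (adjusted p = 0.00548). Over the 25 libraries, Pearson's r was 0.85 (permutation p = 1e-05, adjusted p = 3.09e-05) and Spearman's rho 0.83 (permutation p = 1e-05), and r was 0.81 without the 2 libraries farthest from the median and 0.77 on deviations from the group means. A proliferation marker list, which includes genes of the cell cycle, was also lower in EP, with sums of 13911 to 24792 in sham and 5528 to 9070.01 in EP. The part of proliferating cells in this fall was not tested.

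LOC102549726, whose promoter is printed earlier, was 1742, 1002, 2327, 1327 and 913 in sham and 661, 729.98, 543, 605 and 632 in EP (log2 fold change -1.12 ± 0.23 (SE), adjusted p = 0.000957). All EP values were below the lowest sham value. Its mean was 737 ± 219 with Cur gel, 799 ± 189 with ZNP gel and 753 ± 92.7 with both agents. LOC102549726 overlaps the coding gene RT1-CE4 on the same strand, which did not pass the test in EP (0.08, adjusted p = 0.912). Reads of these overlapping rows cannot be told apart where the counting setting is not stated. LOC100912181 is the only other gene of the set with a small nucleolar RNA row inside its span. Its sham values were 277, 205, 239.95, 352 and 227 and its EP values 183, 166, 144, 196 and 172, with no overlap (log2 fold change -0.58 ± 0.19 (SE), adjusted p = 0.0221), but without sham 4, EP 3 and EP 4 the adjusted p was 0.134. LOC100912181 was named after its values were seen. Rfwd3, which carries the lincRNA label here although it is the symbol of a ubiquitin ligase gene of DNA repair, was 1175, 899.7, 1236, 1396 and 1023 in sham and 582, 519, 595, 515 and 873 in EP (log2 fold change -0.91 ± 0.15 (SE), adjusted p = 0.000272). In the gel groups, in the same order, it was 644 ± 119.5, 739 ± 66.9 and 559 ± 60.5. Its neighbour Glg1 rose (0.31, adjusted p = 0.0146).

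**Figure D2:**
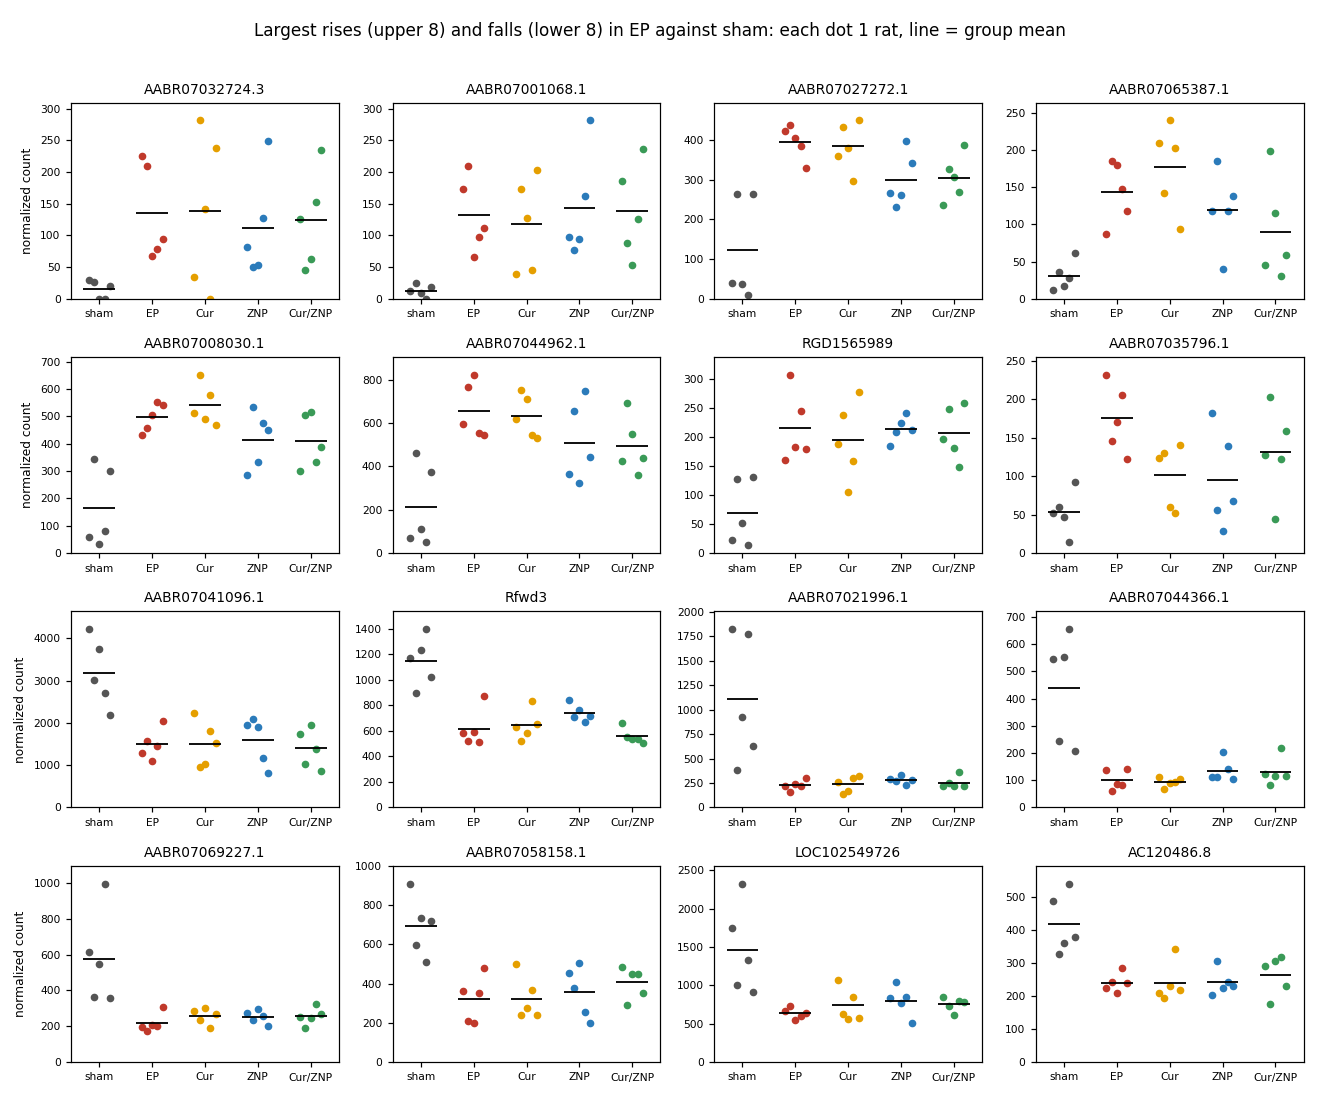
Normalized count in each library (dots, y axis from 0) by group (x axis) of the 8 largest rises and 8 largest falls in EP against sham with no overlap between these groups, with the group mean as a line. In all 16 panels the EP and sham values do not overlap.

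The position of the 157 genes was not used to choose them. The nearest coding transcript overlapped 8 of the genes (6 on the same strand, 2 on the opposite strand), and 38 others lay within 5000 bases of it without overlap. The median gap of the 149 genes that did not overlap was 19092 bases. The nearest coding gene was tested for 135 of the genes. Of 43 such genes that rose in EP, the neighbour rose in 8 and fell in 6. Of 20 that fell, the neighbour fell in 3 and rose in 6. Of the 135 neighbours, 37.8% passed the test in either direction, against 37.6% of all genes.

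Each of the 157 genes was compared with 17 lists of cell type marker genes over the 25 libraries (2669 pairs). On deviations from the group means 30 genes (19.1%) had r over 0.8 with at least 1 list, against 17.3% of the 15930 tested genes that are in no list, so the share was near that of all genes. Lists can rise and fall together, and a gene may follow more than 1 of them. The genes named in this paragraph were chosen after these values were seen. LOC102550325, 4308 bases upstream of Efna1, followed the skeletal muscle list, with Pearson's r = 0.94 (permutation p = 1e-05, adjusted p = 0.000834), Spearman's rho = 0.96 (permutation p = 1e-05), r = 0.95 without the 2 libraries farthest from the median and 0.91 on deviations from the group means. It was 132, 48.9, 68.2, 0 and 22.6 in sham and 691, 427, 97.2, 234 and 429 in EP (log2 fold change 3.61 ± 1.33 (SE), adjusted p = 0.0368). The groups overlapped, and without sham 4, EP 3 and EP 4 the adjusted p was 0.101. The sham mean of LOC102550325 was under 100, so its rise is given as a description. The neighbour Efna1 fell (-1.08, adjusted p = 0.000335). AABR07062068.1, near the calcium channel regulator gene Cracr2a, followed the salivary gland list, with Pearson's r = 0.92 (permutation p = 1e-05, adjusted p = 0.000834), Spearman's rho = 0.93 (permutation p = 1e-05), r = 0.90 without the 2 libraries farthest from the median and 0.91 on deviations from the group means. It was 0 to 103 in sham and 0 to 323 in EP. AABR07057997.1 followed the differentiated keratinocyte list, with Pearson's r = 0.90 (permutation p = 1e-05, adjusted p = 0.000834), Spearman's rho = 0.78 (permutation p = 1e-05), r = 0.77 without the 2 libraries farthest from the median and 0.91 on deviations from the group means. AABR07044414.1, beside an antigen peptide transporter gene, followed the T and natural killer cell list, with Pearson's r = 0.88 (permutation p = 1e-05, adjusted p = 0.000834), Spearman's rho = 0.88 (permutation p = 1e-05), r = 0.83 without the 2 libraries farthest from the median and 0.92 on deviations from the group means. Its r with the macrophage list was also over 0.8 on deviations. Permutation p-values of 1e-05 are the smallest that 100000 permutations can give.

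AABR07017145.2 and AC119007.4 were each carried by a few libraries. AABR07017145.2 was 482, 69.3, 1206, 587 and 21.6 in sham and 34.0, 28.5, 14.1, 11.7 and 54.8 in EP. Its mean reached 100 in the sham group alone, which put it among the 157 genes, so the difference is given as a description, although it is 1 of the 25 genes counted as lower. High values were in sham 1, 3 and 4 and in Cur/ZNP gel 2 (299.5), the 4 libraries with the highest sums of the autonomic neuron list. The libraries fell into separate groups on this list, so no correlation is given, and the same holds for the nasal gland list. AC119007.4 was 10.5, 1.78, 5.24, 1516 and 0 in sham and 0, 0, 490.4, 691 and 0.871 in EP, with at most 10.5 in any gel library. Its high values were in sham 4, EP 3 and EP 4, the libraries with nasal gland reads. The part of autonomic ganglion or nasal gland tissue in these values was not tested.

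Other large changes were in genes named after their values were seen. AABR07002805.1, 50557 bases upstream of Eid2, was 12.7, 164, 11.8, 10.2 and 102 in sham and 716, 417, 179, 139 and 814 in EP (log2 fold change 3.50 ± 0.65 (SE), adjusted p = 0.00054), and without sham 4, EP 3 and EP 4 its change was 3.91 (adjusted p = 0.00201). AABR07017208.2 was 1526, 364, 716, 829 and 827 in sham and 216, 90.9, 119.8, 119 and 391 in EP (log2 fold change -2.25 ± 0.39 (SE), adjusted p = 0.000355), and its change was -1.93 without the 3 libraries (adjusted p = 0.00974). In both genes the groups overlapped, and both calls held without these libraries. AABR07002805.1 had a sham mean under 100, so its rise is given as a description. AABR07034669.1 was 539, 421, 486, 358 and 426 in sham and 301, 318, 299, 375 and 365 in EP (log2 fold change -0.42 ± 0.13 (SE), adjusted p = 0.0133). It followed the proliferation list, with Pearson's r = 0.86 (permutation p = 1e-05, adjusted p = 0.000834), Spearman's rho = 0.77 (permutation p = 3e-05), r = 0.75 without the 2 libraries farthest from the median and 0.75 on deviations from the group means. Every sham library was higher on this list than any other library. The permutations ignored the groups, so their p-values also hold this difference.

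**Figure D3:**
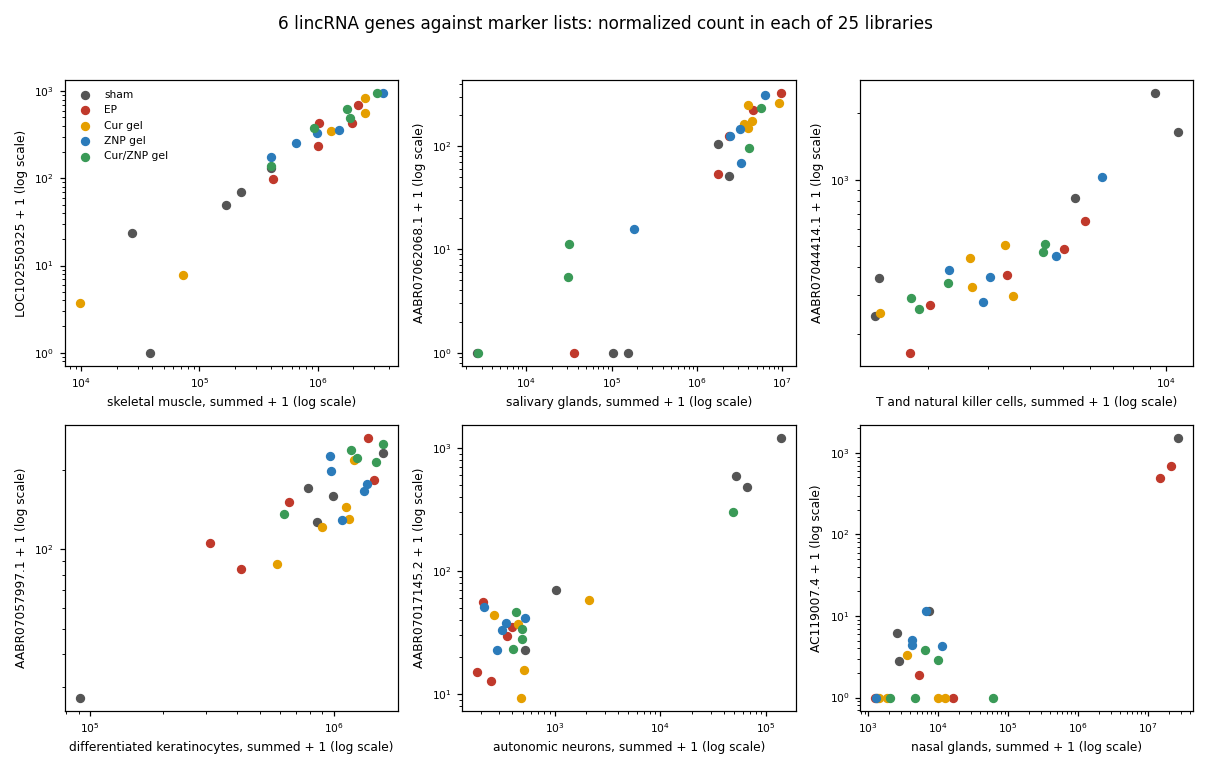
Normalized count plus 1 of 6 lincRNA genes (y axis, log scale) against the summed normalized count plus 1 of a marker list (x axis, log scale) in each of 25 libraries, coloured by group. LOC102550325 and AABR07062068.1 follow their lists over the whole range, whereas AABR07017145.2 and AC119007.4 are high in 4 and 3 libraries.

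A set of 12 genes followed B and plasma cells. Plasma cells make immunoglobulins, whose genes are assembled from many variable segments. The 12 genes lie on chromosomes 3 (6 genes), 6 (4 genes), 4 and 11 (1 gene each), were grouped by these stretches after their values were seen, and 11 of them are at most 1182 bases long. The stretch on chromosome 3, from 16955665 to 20016146 (Rnor_6.0), also holds 2 coding rows described as immunoglobulin kappa variable chains (RGD1563231 and LOC690813). On deviations from the group means their r with a list of 7 B and plasma cell markers ran from 0.69 to 0.92. Their summed normalized count had a median of 1323 in sham (538 to 22259), 3013 in EP (418 to 20593), 2218 with Cur gel, 5197 with ZNP gel and 661 with Cur/ZNP gel. The ranges of all groups overlapped, and none of the 12 passed the test in EP against sham (lowest adjusted p = 0.201). The highest sums were in sham 4 (22259), EP 3 (20593) and EP 4 (15989). AABR07034718.2 on chromosome 11 and AABR07061022.2 on chromosome 4 had nearly the same values. Their highest sham values were 2699 and 2701, and their EP means 270 and 257. The same reads may have been counted in both rows, which was not tested, so the sums may hold them more than once.

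**Figure D4:**
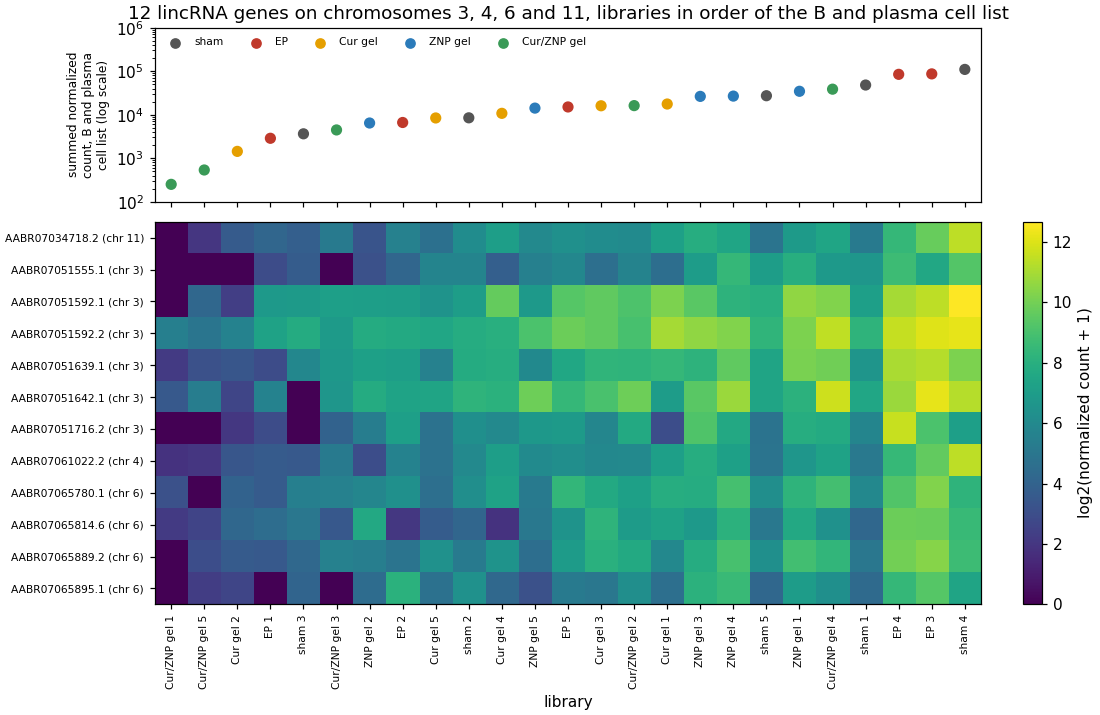
Upper panel, summed normalized count of 7 B and plasma cell markers in each library (y axis, log scale). Lower panel, log2(normalized count + 1) of the 12 lincRNA genes as colour, with the 25 libraries (x axis) in the order of the upper panel. The sum of the 12 genes is highest at the right, in EP 4, EP 3 and sham 4. Some of them, such as AABR07051716.2, are brighter in a ZNP gel library than in sham 4.

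The 3 gel groups were compared with the same sham libraries. With Cur gel 71 of the 157 genes were called (45.2%, against 38.0% of all genes), with 48 higher and 23 lower (19% of all genes each). With ZNP gel 63 were called (40.1%, against 32.1%), with 42 higher (16.7%) and 21 lower (15.4%). With Cur/ZNP gel 68 were called (43.3%, against 39.6%), with 48 higher (20.2%) and 20 lower (19.4%). The level rule bears on these splits too. Of the 157 genes, 26 had a sham mean under 100, and by the rule each has a higher mean outside sham. The counts against sham in this paragraph are therefore given as a description and are not read against all genes. The split also depended on the scaling and on the libraries fitted. Quantile normalization gave 30 higher and 29 lower with ZNP gel and 37 higher and 25 lower with Cur/ZNP gel, and edgeR with TMM factors gave 28 higher and 22 lower with ZNP gel and 35 higher and 23 lower with Cur/ZNP gel. How all genes split under these settings is not given here, so these counts are not read against them. Fits of only the 2 groups compared gave 22 higher and 14 lower with Cur gel, 11 and 10 with ZNP gel, and 17 and 17 with both agents. Without sham 4, EP 3 and EP 4, 64 were called with Cur gel (41 higher and 23 lower), 48 with ZNP gel (27 and 21) and 54 with both agents (33 and 21), against 36.5%, 29.5% and 36.6% of all genes. These comparisons share their sham libraries with that of EP, so values of the named genes are given side by side with no count. AABR07021996.1 was 237 ± 80.9, 282 ± 35.4 and 253 ± 63.2 in the 3 gel groups, in that order, against 1105 ± 660.4 in sham (SD, n = 5). AABR07001068.1 was 118 ± 74.2, 143 ± 84.0 and 138 ± 73.5, against 12.9 ± 9.31 in sham. With this sham mean under 100, its difference from sham is given as a description.

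None of the 157 genes was called by limma in the comparisons of the gels with EP, against 0% of all genes called for Cur gel and Cur/ZNP gel and 0.00623% (1 gene) for ZNP gel. At an unadjusted p of 0.05, 2 of the genes passed with Cur gel (1.27%, against 1.77% of all genes), 4 with ZNP gel (2.55%, against 2.99%) and 15 with Cur/ZNP gel (9.55%, against 12.8%). The 8 named rises differed from EP by -1.25 to 0.28 on the log2 scale with Cur gel, by -1.13 to 0.06 with ZNP gel and by -0.94 to -0.01 with Cur/ZNP gel. The 8 named falls differed by -0.08 to 0.25, by 0.01 to 0.43 and by -0.13 to 0.40. The median 95% interval reached 0.70 to either side, and it lay within 1 log2 unit of 0 for 100 of the 157 genes with Cur gel, for 86 with ZNP gel and for 87 with Cur/ZNP gel. Changes inside these intervals were not excluded. The intervals are not adjusted for the number of genes tested, so a gene whose interval left out 0 could still go uncalled. edgeR called 0 of them as well, and DESeq2 called 1 with Cur gel and 1 with Cur/ZNP gel, which was AC119007.4 in both (adjusted p = 0.0155 and 0.0293), the gene carried in EP by EP 3 and EP 4. The shares of all genes called by edgeR and DESeq2 are not given here, so these calls are not read as a result about the set.

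LOC102549506, annotated as like the kelch protein Klhl3, came closest in Cur/ZNP gel against EP and was named after its values were seen. It was 456, 470.1, 203, 441 and 449 in EP and 761, 666, 589.9, 831 and 567 with Cur/ZNP gel, so the groups did not overlap, as in 2.10% of all genes (log2 fold change 0.80 ± 0.28 (SE), adjusted p = 0.292). EP 3 was far below the other EP libraries, and the difference was 0.57 without it (adjusted p = 0.69) and 0.56 without sham 4, EP 3 and EP 4 (adjusted p = 0.993). In sham it was 651, 727, 426, 453 and 579, with Cur gel 481, 289, 462, 361 and 375, and with ZNP gel 424, 194, 732, 409 and 344. AC127076.2, also named after its values were seen, rose in EP from 189.8, 821, 243, 604 and 849.98 to 975, 1392, 2506, 3688 and 944 (log2 fold change 1.85 ± 0.39 (SE), adjusted p = 0.00128) and was 769, 977, 1098, 627 and 638 with Cur/ZNP gel, which was not past the test against EP (-1.03, adjusted p = 0.298). Its 2 highest EP values were in EP 3 and EP 4, and without these libraries and sham 4 its change against sham was 1.36 (adjusted p = 0.0217). In the comparisons between gels (Cur/ZNP gel against Cur gel, Cur/ZNP gel against ZNP gel, and ZNP gel against Cur gel) 0 of the 157 genes were called by limma, edgeR or DESeq2, against 0% of all genes by limma. At an unadjusted p of 0.05, 14, 7 and 1 passed, against 11.1%, 5.11% and 1.14% of all genes. The agents had 2 mg/mL in the single gels and 1 mg/mL in the combined gel, so no comparison at a matched dose of 1 agent was possible.

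The threshold fell within a continuous range of levels. Just inside it were AABR07051555.1 (mean 105), LOC100910915 (104) and AABR07044570.2 (101.1), and just outside it AABR07018269.2 (99.5), LOC100911733 (96.9) and LOC102556339 (96.9). AABR07044570.2 reached 100 on average in the sham group alone, as did AABR07017145.2, so its values are a description. AABR07044570.2 was 122, 262, 256, 289 and 253 in sham and 46.6, 114, 42.3, 48.3 and 131 in EP, which overlapped. Of the 157 genes, 112 reached a mean of 100 in all 5 groups and 139 had reads in every library.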

How the data were processed

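Total RNA of gingiva was depleted of ribosomal RNA and made into stranded libraries, 5 rats per group, and the labels say no more on separate extractions. The authors deposited 1 table of normalized read counts per transcript for the 25 libraries, a signal in the sense that the counts were divided by size factors, and the submitters' processing notes name Rnor_6.0 and DESeq2. The aligner, the counter and the strand setting of the counting are not given in the sources used here. The deposited values were whole multiples of 1 step per library (100% of values, tolerance 0.01), from which reads were recovered. 0 columns were left unmapped.

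Transcripts were summed per gene name. A gene entered the fit if any 1 library had a CPM (read count scaled to the library total) of 2 or more (16062 genes), and log2(normalized count + 1) was fitted with limma 3.58.1 in R 4.3.3 with a robust variance trend over all 25 libraries, without a block. P-values are two-sided and were adjusted over all genes by Benjamini-Hochberg, with a threshold of 0.05. Fold changes are differences between group means of log2(normalized count + 1). In genes with values at or near 0 they can be larger or smaller than the ratio of the group mean counts. Confidence intervals use the residual degrees of freedom. edgeR 4.0.16 and DESeq2 1.42.0 on the recovered reads were alternatives. The fit was tested on simulated data. Correlations used log2 values, with 100000 permutations over all 25 libraries. These permutations ignored the groups, so their p-values also hold differences between groups.

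The genes and lists were chosen with earlier results of these data known. Named were the 10 highest, those with a gene name, up to 8 rises and 8 falls of called genes without overlap in EP against sham, those called without sham, the 3 nearest the threshold on either side, known noncoding RNA genes and neighbouring coding genes. Other names were added after the values were seen. Intervals cover the spread between libraries. RefSeq tables of GRCr8 gave names and promoters, and no coordinates were moved between builds. The neighbouring coding genes of some named genes are not reported here.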

Additional observations from a re-analysis of the deposited data

Results flagged for a closer look

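Of 205 groups of 5 libraries looked at for the 40 named genes and the lincRNA share of reads, 14 had 1 library far from the other 4 (a gap of over 0.71 of the group's range), and chance flags about 1 group in 20. For Rfwd3, EP 5 had 873 against 515 to 595 in the other EP libraries, and Cur/ZNP gel 1 had 663 against 504 to 549. For AABR07069227.1, EP 5 had 307 against 171 to 207. For AABR07021996.1, Cur/ZNP gel 4 had 362 against 215 to 254. For AC120486.8, Cur gel 4 had 341 against 195 to 231. For AABR07044570.2, sham 1 had 122 against 253 to 289, the lowest of its group. For AABR07051555.1, one of the genes that followed B and plasma cells, sham 4 had 612 against 11.8 to 131. For LOC102549506, EP 3 had 203 against 441 to 470.1, the lowest of its group. For AC119007.4, sham 4 had 1516 against 0 to 10.5, and Cur gel 1 had 2.28 against 0 in the other 4. For AABR07017145.2, Cur/ZNP gel 2 had 299.5 against 22.2 to 45.6. For LOC102550325, ZNP gel 5 had 945 against 175 to 359.8. For AABR07044414.1, ZNP gel 1 had 1032 against 277 to 450.1. For AABR07034669.1, Cur gel 1 had 398 against 292 to 317. All values are normalized counts.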

How the results depend on the processing

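Fits of only the 2 groups compared called fewer lincRNA genes against sham, 37 in EP, 36 with Cur gel, 21 with ZNP gel and 34 with Cur/ZNP gel, against 21.0%, 20.9%, 12.2% and 22.7% of all genes. Without sham 4, EP 3 and EP 4, 47 were called in EP (27.9% of all genes). A mean of at least 200 in place of 100, which leaves 96 genes, gave 46 in EP and 45 with Cur/ZNP gel, where all genes stay at 37.6% and 39.6%. DESeq2 called AC119007.4 alone in Cur gel against EP and in Cur/ZNP gel against EP, and its share of all genes is not given here. Leaving out 1 library of the groups compared gave 60 to 86 calls in EP (60 without sham 1, 86 without sham 2), 57 to 82 with Cur gel, 45 to 78 with ZNP gel (45 without ZNP gel 4) and 52 to 80 with Cur/ZNP gel, while 29.8% to 42.1%, 29.4% to 43.3%, 23.2% to 38.4% and 32.0% to 45.0% of all genes were called, and 0 lincRNA genes in the comparisons without sham. The lincRNA share of reads then lay between 0.201% and 0.252% (sham), 0.152% and 0.178% (EP), 0.170% and 0.209% (Cur gel), 0.183% and 0.217% (ZNP gel) and 0.188% and 0.209% (Cur/ZNP gel). The cause of these differences was not tested.

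With the rat number as a replicate block, 72 genes were called in EP, 68 with Cur gel, 62 with ZNP gel and 70 with Cur/ZNP gel, and 0 in the other comparisons. The shares of all genes called with this block are not given here. Of 50 pairs of same-numbered libraries, 17 had deviations correlated over 0.1, and all pairs did so in 0 of 10 group pairs, so the numbers were not taken to pair the rats.

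Of 16 named genes called in EP against sham, 14 were past the threshold in all 21 settings. The 16 include rises that are given as a description because of the level rule. Of those not called, leaving aside AABR07044570.2, whose values are a description, Tug1 was past it in 5 settings, AABR07072236.1 in 4, AABR07021544.1 in 2, and LOC102551453 and AABR07044375.2 in 1 each. The direction of 5 named genes that were not called changed. LOC100912578 was at 0.033 without sham 4, EP 3 and EP 4 (log2 fold change). AABR07001416.3 was at -0.38 with edgeR and TMM, -0.39 with RLE factors, -0.39 with DESeq2 and -0.34 without the 3 libraries, and from -0.69 to 0.60 with 1 library left out. LOC100910915 was at -0.18 with quantile normalization and -0.29 without the 3 libraries, and from -0.19 to 0.19 with 1 left out. AC134224.3 ranged from -0.15 to 0.29 and AABR07051555.1 from -1.32 to 0.10 with 1 left out.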
